A study of Caenorhabditis elegans with 36 samples.

Results

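MicroRNA levels of wild-type (WT) Caenorhabditis elegans were compared on either side of the switch from the last larval stage to the adult, which WT animals reach at about 36 h under these conditions. The earlier window held the libraries of 33, 34 and 35 h and the later window those of 37, 38 and 39 h after first-stage larvae were plated, which makes 6 of the 36 libraries of the series. Neighbouring hours were taken as replicates, so every p-value measures scatter between hours within a window, any trend inside the window included. All animals were N2 worms without treatment, grown on plates at 25 °C, and whole animals were extracted. A second strain, ebax-1(tm2321), was sampled at the same hours and is used only in the last comparison. EBAX-1 is the substrate receptor of a ubiquitin ligase that takes part in the decay of certain miRNAs. Each strain and hour has 1 library, and nothing in the labels says that hours came from separate cultures. All 437 rows of the count table, both strands of each hairpin, were considered, and 236 passed the filter on low counts and were tested.

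A miRNA is cut as a short duplex from a hairpin precursor. One strand, the guide, is kept by an Argonaute protein and pairs with messenger RNAs through its seed near the 5′ end, while the other strand, the passenger, is usually lost quickly. Here the more abundant strand over the 18 WT libraries was called the guide, and "5p" and "3p" name the arm of the hairpin. In worms, lin-4 and the let-7 family time the larval stages, and let-7 is needed for the larva-to-adult transition. The miR-35 family is known from the germline and the embryo. In whole animals, fewer cells of a type and less RNA per cell cannot be told apart.

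The 6 libraries held 3168826 to 5286785 counts of miRNA reads. The library of 33 h had the lowest value of the 6 for 71 of the 236 miRNAs, against 13 to 55 in the other libraries, and the highest for 50, as many as the library of 39 h. Levels are given as CPM, the counts of a strand relative to the library's total with a fixed multiplier, scaled with TMM factors, which were 1.05 to 1.16 in the earlier window and 0.895 to 0.922 in the later one. Plain library totals therefore moved the median log2 change of all tested miRNAs from 0.04 to -0.23. An abundant guide moved with this gap between scalings: miR-71-5p took 1.41, 1.75 and 2.98% of all counts at 33, 34 and 35 h and 6.22, 9.02 and 8.17% at 37, 38 and 39 h. Its part in the gap was not tested.

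Across the switch, 25 miRNAs were higher and 11 were lower at 37 to 39 h (adjusted p under 0.05, edgeR quasi-likelihood F-test), which is 10.6% and 4.66% of the miRNAs tested. With plain library totals the split was 14 higher and 24 lower. In 56 miRNAs (23.7%) all 3 later libraries lay above all 3 earlier ones and in 33 (14.0%) they lay below, and all 36 called miRNAs were among these. The higher group held 15 guides, 9 passengers and 1 strand without a measured partner, and the lower group held 3 guides and 8 passengers. The tested set held 133 guides, 85 passengers and 18 strands without a partner, so that 13.5% of guides and 20% of passengers were called, a difference that was not tested. Changes over 1 on the log2 scale were seen in 14 of the called increases and 7 of the called decreases.

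**Figure D1:**
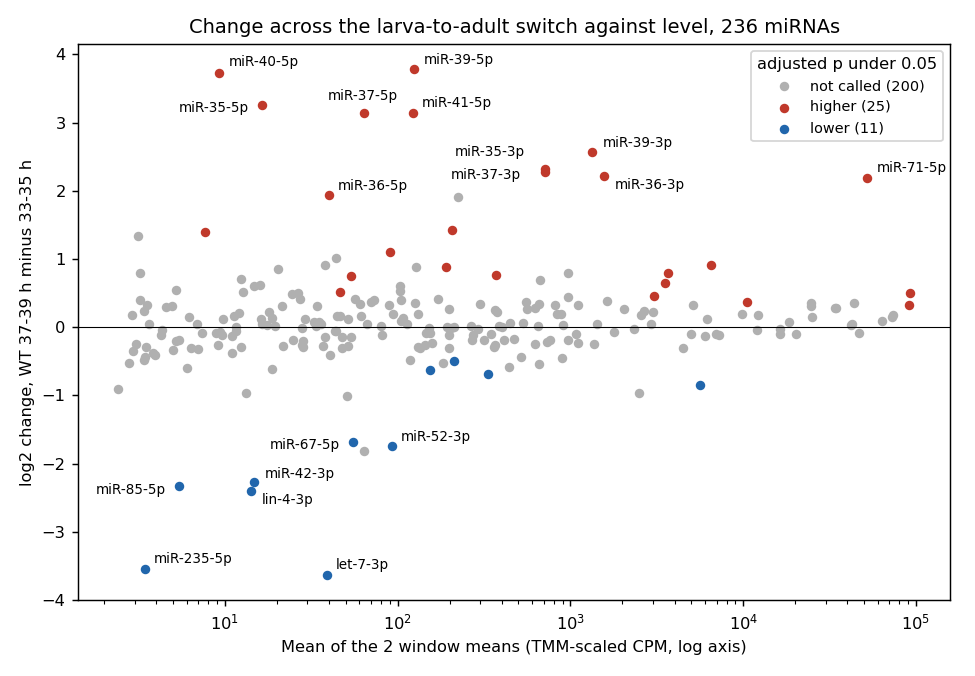
Log2 change between the windows (vertical axis) against the mean TMM-scaled CPM of both windows (horizontal axis, log scale) for 236 miRNAs, with called miRNAs coloured by direction. At the top, at low to middle levels, lie 5p strands of the miR-35 cluster, while miR-71-5p lies alone at the upper right, and let-7-3p and miR-235-5p lie at the bottom.

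The largest increases came from the hairpins miR-35 to miR-41, which sit together on chromosome II in an intron of Y62F5A.9 and opposite to its strand in the WBcel235 annotation. The 3p strands of this cluster form, with miR-42-3p, a family that shares a seed and is needed for embryonic development. Of 8 family members, 7 were tested, 4 rose and 1 fell, with a median log2 change of 2.21, beside 10.6% higher, 4.66% lower and a median of 0.04 among all tested miRNAs. Members were chosen with earlier results of these data known. Reads that match several positions were kept by the authors, so reads can be shared between strands with nearly the same letters, which leaves single values uncertain.

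The guide miR-39-3p had 509, 378 and 274 CPM at 33, 34 and 35 h and 827, 1990 and 4060 CPM at 37, 38 and 39 h. Its level declined by the hour within the earlier window and climbed by the hour within the later one, and the windows did not overlap. The log2 change was 2.57 ± 0.56 (SE, n = 3 hours per window; adjusted p = 0.0272 by edgeR). For miR-35-3p the values were 368, 207 and 139 CPM before and 433, 1270 and 1862 CPM after the switch, so that 37 h lay only a little above 33 h (log2 change 2.32 ± 0.58, adjusted p = 0.0362 by edgeR). The other called guides were miR-37-3p (log2 change 2.28) and miR-36-3p (log2 change 2.21), with the same course. The guide miR-40-3p had 135, 89.0 and 57.8 CPM before and 137, 398 and 522 CPM after, and its log2 change of 1.91 ± 0.52 did not pass the test (adjusted p = 0.0506 by edgeR). It was called in 5 alternative settings, among them the DESeq2 Wald test (1.85, adjusted p = 0.00286), and not in 12. For miR-38-3p the windows overlapped (log2 change 0.88 ± 0.59), and miR-41-3p, with 0 to 4 counts per library, was not tested. The 4 guide calls were the less firm ones of the cluster. Those of miR-35-3p, miR-36-3p and miR-37-3p were lost without any 1 of the libraries of 34, 35, 38 and 39 h, and that of miR-39-3p also without 33 h, with adjusted p up to 0.151 and log2 changes of 1.73 to 2.83 in the fits that lost a call. With library totals miR-35-3p and miR-37-3p were not called (adjusted p = 0.0532 and 0.0529 by edgeR), and with limma on the deposited values none of the 4 was (adjusted p of 0.0529 to 0.0646).

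The opposite arm of the same hairpins rose from lower levels, with log2 changes above those of the 3p strand in miR-35, miR-37, miR-39 and miR-40 and below it in miR-36. The test of the ratio between strands called none of these hairpins (for miR-39 a change of -1.21 ± 0.43, adjusted p = 0.0973 by limma). For miR-39-5p, 13.6, 14.1 and 23.0 CPM at 33, 34 and 35 h stood against 116, 248 and 334 CPM at 37, 38 and 39 h, a log2 change of 3.78 ± 0.44 (adjusted p = 0.00694 by edgeR). Every later library was at least 5 times as high as the highest earlier one. The strand miR-41-5p, here the more abundant strand of its hairpin, went from 19.6, 24.5 and 30.6 CPM to 132, 250 and 279 CPM (log2 change 3.14 ± 0.33, adjusted p = 0.00658 by edgeR). For miR-37-5p the levels were 10.6, 8.95 and 19.2 CPM before and 68.3, 126 and 148 CPM after (log2 change 3.14 ± 0.39). Low counts limit the remaining members of this group. The strand miR-40-5p had 2, 5 and 8 reads in the earlier libraries and 34, 53 and 129 in the later ones. Relative to TMM-scaled library totals the ratio was 14.2, with a 95% counting interval of 8.45 to 25.9. Reads of miR-35-5p went from 7, 11 and 18 to 48, 105 and 219 (log2 change 3.25 ± 0.48), and miR-36-5p changed by 1.94 ± 0.33. These 6 strands made up every tested 5p strand of the cluster, since miR-38-5p, with 0 to 2 reads per library, was not tested. The calls of miR-37-5p, miR-39-5p, miR-40-5p and miR-41-5p were kept in all 6 fits that left out 1 library, whereas that of miR-35-5p was lost without 38 h (adjusted p = 0.0551 by edgeR) and that of miR-36-5p without 38 h or 39 h (adjusted p up to 0.0873 by edgeR).

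In the single library of 36 h, between the windows, the arms of miR-39 differed in their place between the window means. On the deposited log2 scale miR-35-3p stood at 10.0 at 36 h, against means of 10.2 ± 0.77 (SD, n = 3) at 33 to 35 h and 12.1 ± 1.11 at 37 to 39 h. The strand miR-39-5p stood at 8.41, against 6.54 ± 0.34 and 9.85 ± 0.80. At 36 h miR-39-5p was thus 56.5% of the way between the window means and miR-39-3p 1.42% of the way, with no test for 1 library. Both miR-35-3p and miR-39-3p fell to a low at 35 h, below the mean of their window. Their place against that mean therefore does not date the start of their rise.

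The family member that fell was miR-42-3p, whose hairpin lies next to miR-43 and miR-44 elsewhere on chromosome II. It had 37.4, 22.7 and 13.4 CPM at 33, 34 and 35 h and 6.77, 4.07 and 4.52 CPM at 37, 38 and 39 h. The decline was already under way within the earlier window, and no later library reached the lowest earlier one (log2 change -2.27 ± 0.42, adjusted p = 0.0147 by edgeR). The call was lost without 38 h or 39 h (adjusted p up to 0.0873 by edgeR). The opposite strand miR-42-5p had 18.8, 11.2 and 13.6 CPM before and 21.9, 21.99 and 34.7 CPM after, a log2 change of 0.86 ± 0.27 that did not pass the test (adjusted p = 0.0845 by edgeR). The neighbours miR-43-3p (log2 change -0.19 ± 0.20) and miR-44-3p (-0.10 ± 0.11) were not called either.

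**Figure D2:**
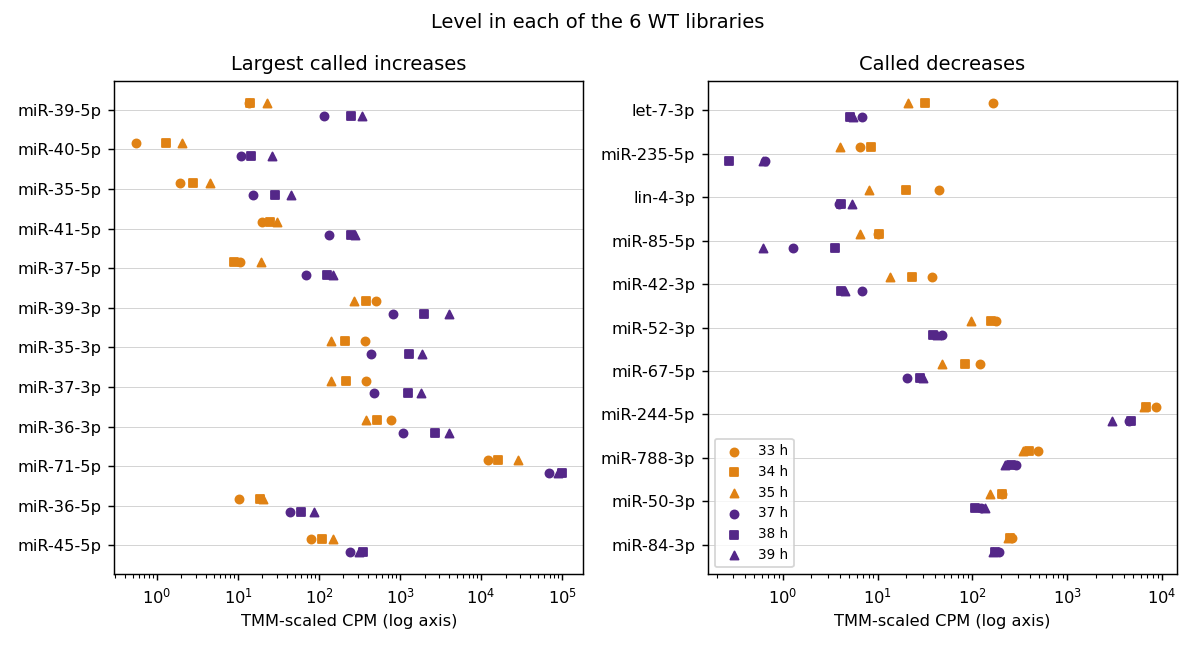
TMM-scaled CPM (log axis) of the 12 largest called increases and the 11 called decreases in each of the 6 WT libraries, orange for 33 to 35 h and purple for 37 to 39 h, with 1 marker shape per hour. In each row the orange and purple points do not overlap, which the naming rule required. The point of 33 h lies far to the right of the other earlier hours for let-7-3p, at 164 CPM.

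The most abundant miRNA with a large change was miR-71-5p, which promotes long life and stress resistance in worms and is encoded on chromosome I in an intron of ppfr-1 beside miR-2. Its level was 12206, 16009 and 28255 CPM at 33, 34 and 35 h and 69464, 99238 and 88614 CPM at 37, 38 and 39 h. It was lowest at 33 h and more than doubled within the earlier window, while the later libraries lay close together. The fold change was 4.56 (log2 2.19 ± 0.32, adjusted p = 0.00713 by edgeR), and the call was lost only without 38 h (adjusted p = 0.0551 by edgeR) among the 6 libraries. The passenger miR-71-3p had 458, 722 and 963 CPM before and 1315, 1212 and 1172 CPM after, with a log2 change of 0.79 ± 0.26 (adjusted p = 0.0931 by edgeR). The neighbouring miR-2-3p did not follow: apart from 1256 CPM at 33 h, its 5 other values were 508 to 548 CPM.

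Of 6 miRNAs known from work on ageing, 3 rose and none fell, with a median log2 change of 0.80, beside 10.6% higher among all tested miRNAs. With plain library totals the median was 0.53 and 2 rose, since miR-34-5p, at 0.38, was not called (adjusted p = 0.0529 by edgeR). Besides miR-71-5p these were miR-246-3p and miR-34-5p. The guide miR-246-3p had 3415, 4859 and 5305 CPM before and 8284, 8698 and 8559 CPM after (log2 change 0.91 ± 0.17, adjusted p = 0.0147 by edgeR). For miR-34-5p, a conserved miRNA that responds to DNA damage, 2440, 2784 and 3022 CPM stood against 4119, 4095 and 4719 CPM (log2 change 0.65 ± 0.12, adjusted p = 0.0152 by edgeR). In both, the lowest later library lay above the highest earlier one. The call of miR-246-3p was lost without 38 h or 39 h and that of miR-34-5p without any 1 of 34, 38 and 39 h (adjusted p up to 0.0873 by edgeR). The heat-responsive paralogues differed by 1 library: miR-239a-5p had 473 to 531 CPM before and 735, 1175 and 576 CPM after, and miR-239b-5p had 22.2 to 32.2 CPM before and 38.0, 89.0 and 21.96 CPM after. Neither was called, and 38 h was the high library in both. The last member, miR-238-3p, changed by 0.22 ± 0.14 and was not called.

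Smaller increases were found in several abundant guides. The miR-58 family, related to bantam of flies, supplied 26.2% of all counts at 33 to 35 h and 27.2% at 37 to 39 h. Of 4 members tested 2 rose, beside 10.6% of all tested miRNAs, with a median log2 change of 0.25 that turned to -0.03 with plain library totals. The guide miR-82-3p went from 73944, 77223 and 79420 CPM to 108940, 117870 and 98685 CPM (log2 change 0.50 ± 0.08, adjusted p = 0.0113 by edgeR). Its neighbour in gid-2, miR-81-3p, went from 82379, 79872 and 80507 CPM to 105780, 105350 and 94161 CPM (log2 change 0.33 ± 0.07). With library totals neither was called, at log2 changes of 0.22 and 0.05. Likewise miR-61-3p (log2 change 0.37) and miR-250-3p (0.45), encoded side by side on chromosome V, were called with TMM factors but not with library totals, at 0.09 and 0.18. Of these 4 guides, miR-82-3p kept its call in all 6 fits without 1 library, miR-81-3p and miR-250-3p kept it only without 33 h, and miR-61-3p in none (adjusted p up to 0.174 by edgeR). The passenger miR-61-5p had 123 to 146 CPM before and 216 to 282 CPM after (log2 change 0.88 ± 0.15), and its call was lost without any 1 of 34, 38 and 39 h (adjusted p up to 0.0711 by edgeR).

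The remaining called increases lay outside the families above. The passenger miR-45-5p had 79.6, 108 and 149 CPM before and 243, 352 and 311 CPM after (log2 change 1.43 ± 0.26, adjusted p = 0.0142 by edgeR), and its call was lost without any 1 of the libraries of 34, 38 and 39 h (adjusted p up to 0.0873 by edgeR). Its guide miR-45-3p stayed between 6147 and 7733 CPM in all 6 libraries and may share reads with the near-identical miR-44-3p. The strand miR-78, encoded on chromosome IV, had 46.4, 58.0 and 68.2 CPM before and 123, 126 and 120 CPM after (log2 change 1.10 ± 0.16, adjusted p = 0.00713 by edgeR), with the call lost without 38 h or 39 h (adjusted p = 0.0551 at most). The strands miR-2209a-3p, miR-77-3p, miR-253-3p, miR-1829b-3p and miR-74-5p rose by 0.51 to 1.40 on the log2 scale. Each of these 5 calls was lost without any 1 of the libraries of 34, 38 and 39 h, those of miR-77-3p and miR-1829b-3p also without 33 h, that of miR-74-5p also without 35 h, and those of miR-77-3p and miR-74-5p also without 37 h (adjusted p up to 0.174 by edgeR). With library totals only miR-2209a-3p of these 5 was called, and the other 4 had log2 changes of 0.24 to 0.53 (adjusted p of 0.0532 to 0.193 by edgeR). They were named after their values were seen, as were miR-34-5p, miR-61-5p and miR-78, to account for every called increase.

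Most decreases were in passenger strands of hairpins whose guides were not called. Among these hairpins the test of the ratio between strands called miR-42, miR-52 and miR-85. It did not call let-7, lin-4, miR-235, miR-50 or miR-84 (adjusted p of 0.0579 to 0.0815 by limma). The passenger of let-7, let-7-3p, had 164, 31.2 and 21.0 CPM at 33, 34 and 35 h and 6.77, 5.16 and 5.54 CPM at 37, 38 and 39 h. The 33 h library was far above the others, and the windows did not overlap, as in every called miRNA (log2 change -3.63 ± 0.85, adjusted p = 0.0351 by edgeR). Without 33 h the change was -2.16 and still called, while without 37, 38 or 39 h the call was lost (adjusted p up to 0.151 by edgeR). The guide let-7-5p had 45988, 49082 and 49306 CPM before and 50237, 45335 and 39942 CPM after, which overlap (log2 change -0.09 ± 0.10).

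For lin-4-3p, the passenger of the founding miRNA of the class, the levels were 44.2, 19.7 and 8.08 CPM before and 3.87, 4.07 and 5.34 CPM after. As for let-7-3p, most of the descent lay within the earlier window (log2 change -2.41 ± 0.61, adjusted p = 0.0397 by edgeR). Only the fit without 35 h kept the call among those without 1 library (log2 changes of -2.82 to -1.61, adjusted p up to 0.174 by edgeR). The guide lin-4-5p had 751, 523 and 518 CPM before and 492, 456 and 376 CPM after (log2 change -0.44 ± 0.19, not called).

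The passenger miR-235-5p was counted 24, 33 and 16 times at 33, 34 and 35 h and 2, 1 and 3 times at 37, 38 and 39 h. Relative to TMM-scaled library totals the later window was lower by a factor of 12.3, with a 95% counting interval of 5.38 to 34.6. The decrease was called (adjusted p = 0.00713 by edgeR) and was kept without any 1 of the 6 libraries. Its guide miR-235-3p, which holds back neural progenitors when larvae lack food, had 10713, 23848 and 31364 CPM before and 30812, 28886 and 22429 CPM after, with overlapping windows. Reads of miR-85-5p numbered 37, 40 and 26 before and 4, 13 and 3 after (log2 change -2.34 ± 0.51, adjusted p = 0.0272 by edgeR), a call that was kept only without 35 h or without 38 h. Its guide miR-85-3p had 15226 to 25825 CPM before and 25381 to 29846 CPM after and was not called.

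The passenger miR-52-3p, of a hairpin of the miR-51 family, had 176, 156 and 96.0 CPM before and 47.7, 38.0 and 42.1 CPM after (log2 change -1.74 ± 0.24, adjusted p = 0.00713 by edgeR). Its call was lost only without 38 h (adjusted p = 0.0551 by edgeR), and the guide miR-52-5p changed by -0.31 ± 0.15 (not called). The passengers miR-50-3p (log2 change -0.63 ± 0.17) and miR-84-3p (-0.50 ± 0.12) moved less. The former was called only without 35 h among the fits without 1 library and the latter in none of them (adjusted p up to 0.209 by edgeR). The guide of the latter, miR-84-5p, a let-7 paralogue, lay at 15225 to 17164 CPM in all 6 libraries.

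The 3 guides that fell were miR-67-5p, miR-244-5p and miR-788-3p. The strand miR-67-5p, from an intron of zmp-1 on chromosome III, had 121, 83.6 and 47.2 CPM before and 20.3, 28.0 and 29.8 CPM after (log2 change -1.68 ± 0.35, adjusted p = 0.0240 by edgeR). Its partner miR-67-3p stayed at 7.41 to 12.6 CPM. The abundant miR-244-5p had 8547, 6720 and 6505 CPM before and 4478, 4691 and 2935 CPM after (log2 change -0.85 ± 0.20, adjusted p = 0.0361 by edgeR). For miR-788-3p the levels were 497, 396 and 338 CPM before and 291, 255 and 221 CPM after (log2 change -0.68 ± 0.18, adjusted p = 0.0495 by edgeR). These calls were less firm: that of miR-244-5p was kept in none of the fits without 1 library, that of miR-788-3p only without 35 h and that of miR-67-5p only without 33 h or 35 h (adjusted p up to 0.148 by edgeR). The partner miR-788-5p, modelled as the guide in the paper, had 197 CPM at 33 h and 50.4 and 50.5 CPM at 34 and 35 h. In the later window it had 24.8 to 34.8 CPM (log2 change -1.81 ± 0.57, adjusted p = 0.0833 by edgeR).

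**Figure D3:**
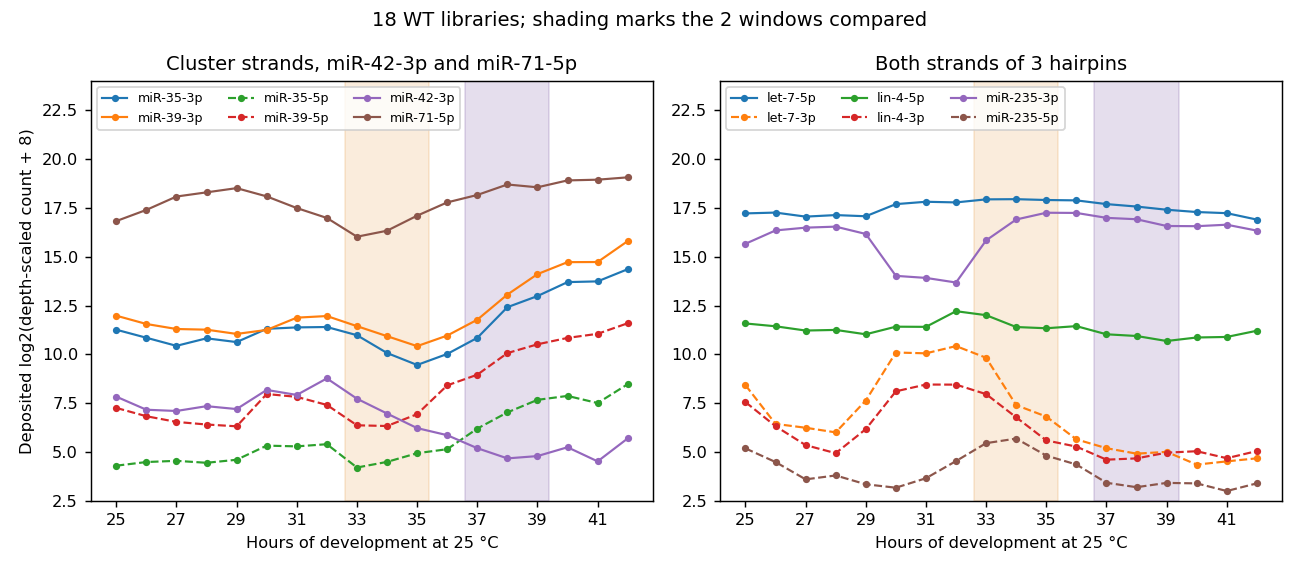
Deposited log2 of the depth-scaled count plus 8 in the 18 WT libraries from 25 to 42 h of development, with the 2 windows shaded and the less abundant strand dashed for each hairpin shown with both strands. The 3p strands miR-35-3p and miR-39-3p reach their low at 35 h and climb from there. The strand miR-42-3p declines through the earlier window and lies lower in the later one. The strands let-7-3p and lin-4-3p descend from a high plateau at 30 to 32 h while let-7-5p moves far less.

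No listed member of the let-7 and lin-4 families was called with TMM factors, and with 15.3% of all tested miRNAs called, such small groups can hold no call without standing apart. In the let-7 family 0 of 4 members passed the test, with a median log2 change of -0.09, and the largest change was -0.19 ± 0.12 in miR-241-5p. With library totals the median was -0.37 and let-7-5p, miR-84-5p and miR-241-5p passed as lower (adjusted p = 0.0331, 0.0248 and 0.0340 by edgeR). The lin-4 family had 0 of 2 called (median -0.23), and the let-7-like miR-793, miR-794-5p and miR-795-5p had 0 of 3 (median 0.06). The decline list from the last larval stage had 1 of 3 tested members lower (median -0.96, or -0.52 without 33 h), which was miR-788-3p. The paper modelled the other strand, miR-788-5p, as the guide, and its decrease was not called here (adjusted p = 0.0833 by edgeR). The decrease of miR-788-5p was called in 5 alternative settings and not in 12. Among the 5 were the DESeq2 Wald test (-1.89, adjusted p = 0.00451) and the fit without 33 h (adjusted p = 0.037 by edgeR). The guide miR-247-3p of that list had 28.4, 14.1 and 10.6 CPM before and 8.70, 7.33 and 10.9 CPM after and was not called. Of 6 strands known as rhythmic, 1 rose (miR-71-5p) and 3 fell (let-7-3p, lin-4-3p and miR-235-5p), and of 6 guides that rise from the third larval stage none was called (median -0.02). One of these guides, miR-240-5p, had a log2 change of -0.59 ± 0.18 (adjusted p = 0.0824 by edgeR) and was called lower in 6 alternative settings, among them library totals (-0.87, adjusted p = 0.0331 by edgeR) and the DESeq2 Wald test (-0.66, adjusted p = 0.00883). The declining, rhythmic and rising lists were taken from the study, so their counts are no independent evidence of direction. The declining list held both strands of hairpins whose guides decline in the study.

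Other families had few or no called members, with medians from -0.50 to 0.28 beside 0.04 among all tested miRNAs. The windows did not overlap in 3 of 5 miR-64 cluster members and 1 of 3 miR-72 members, all higher. The same held for 3 of 6 miR-51 members and 2 of 2 miR-29 relatives, all lower. Among all tested miRNAs these shares were 23.7% higher and 14.0% lower. No member of the miR-75 family or of the mirtrons was apart. None of 5 members of the miR-64 cluster (median log2 change 0.28), 6 of the miR-51 family (-0.26), 3 of the miR-72 family (-0.03), 2 of the miR-75 family (-0.23), 2 relatives of miR-29 (-0.50) and 3 mirtrons, which are spliced rather than cut from their host (0.00), was called. Of the miR-29 relatives, miR-83-3p had a log2 change of -0.61 ± 0.19 (adjusted p = 0.0845 by edgeR) and was called lower in 4 alternative settings, among them library totals (-0.89, adjusted p = 0.0325 by edgeR). In the miR-51 family, miR-54-3p had 6890 CPM at 33 h and 1386 to 1739 CPM in the other 5 libraries. The miR-44 seed group had 1 of 4 higher (miR-61-3p, median -0.10) and the miR-2 seed group 1 of 3 higher (miR-250-3p, median -0.19). Among all tested miRNAs 10.6% were higher, and neither of these calls held with library totals.

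No marker of muscle, neurons or intestine was called. The miR-35 family, known from the germline and the embryo, had called members in both directions, as given above. The muscle miRNA miR-1-3p lay at 60259 to 63522 CPM before and 63783 to 67889 CPM after (log2 change 0.08 ± 0.06, and -0.19 with library totals). Of the neuronal strands, lsy-6-3p changed by -0.30 ± 0.23, miR-124-3p by -0.05 ± 0.14 and miR-791-3p, with 5 to 23 reads per library, by 0.17 ± 0.67 (-0.85 to 0.58 without 1 library). With library totals lsy-6-3p was at -0.57 and miR-791-3p at -0.10. The intestinal miR-60-3p changed by -0.03 ± 0.19.

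Whether both strands of a hairpin changed alike was asked with the log2 ratio of guide to passenger in 85 hairpins. The ratio was higher after the switch in 5 hairpins and lower in 1 (7.06% of hairpins, adjusted p under 0.05, limma), and 28 had an unadjusted p under 0.05. In miR-42, miR-42-5p counted as the guide by its mean and the family member miR-42-3p as the passenger, whereas the paper modelled miR-42-3p as the guide. The log2 ratio of miR-42-5p to miR-42-3p was -0.92, -0.90 and 0.02 at 33, 34 and 35 h. At 37, 38 and 39 h it was 1.44, 1.97 and 2.48. The strands of this hairpin thus changed places as the more abundant one (change 2.56 ± 0.37, adjusted p = 0.0138 by limma). In miR-71 the ratio was 4.47 to 4.87 before and 5.72 to 6.35 after (change 1.41 ± 0.19, adjusted p = 0.0138 by limma). In miR-52 it rose by 1.36 ± 0.21, in miR-85 by 1.94 ± 0.43 and in miR-246 by 0.99 ± 0.20. The 1 lower ratio was that of miR-45, which went from 5.53 to 6.56 before to 4.15 to 4.98 after (change -1.55 ± 0.33, adjusted p = 0.0442 by limma). Its guide miR-45-3p may share reads with miR-44-3p, which leaves this ratio uncertain. All 6 ratios lost their call without any 1 of the libraries of 34, 38 and 39 h.

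Among the 85 hairpins, both strands were called in the same direction in 5, only the guide in 9, only the passenger in 12 and neither in 59. No hairpin had its strands called in opposite directions. The passenger had the larger absolute change in 53 hairpins, with medians of 0.31 for passengers and 0.22 for guides on the log2 scale. Passengers have fewer reads than guides, so their changes carry more counting error.

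**Figure D4:**
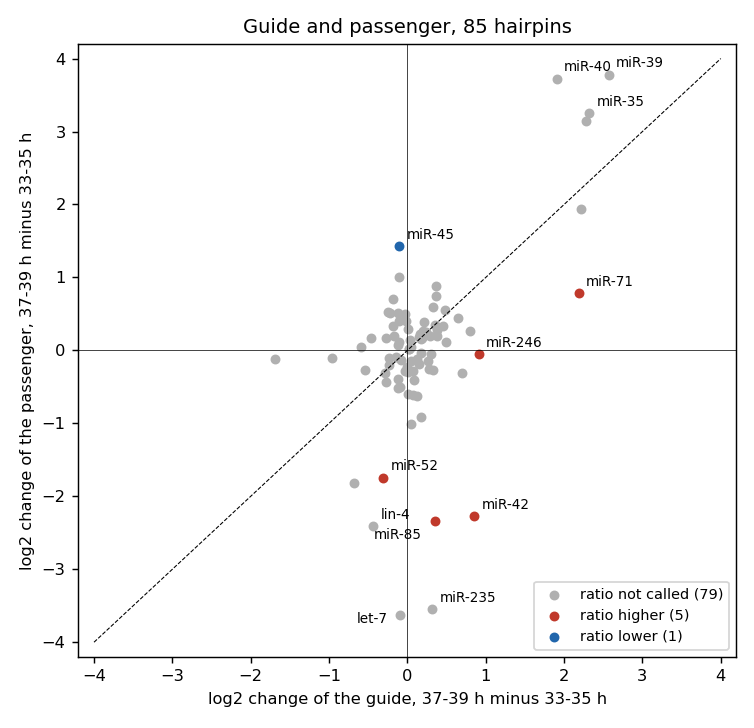
Log2 change of the passenger (vertical axis) against that of the guide (horizontal axis) between the windows in 85 hairpins, with the dashed line marking equal change and colours marking the 6 hairpins with a called ratio change. The miR-35, miR-39 and miR-40 hairpins lie above the line at the upper right, and let-7, lin-4 and miR-235 lie far below zero on the passenger axis only.

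Some miRNAs of larvae are rhythmic with a period of 7 h, which the paper fitted to hours that end before the later window. The change across the switch was set against the change 7 h earlier, 30 to 32 h minus 26 to 28 h. The fit held 12 WT libraries, and these earlier windows, called the earlier phases below, were matched by hours alone. That earlier change was called in 69 of 256 miRNAs (27.0%), 32 higher and 37 lower. Both changes differed in 51 miRNAs (19.9%), 23 with a higher and 28 with a lower value across the switch (edgeR), and in 11 and 44 with plain library totals.

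The largest differences were in the passengers let-7-3p, miR-85-5p and lin-4-3p. In this fit let-7-3p changed by 4.02 ± 0.63 between the earlier phases and by -3.73 ± 0.68 across the switch, a difference of -7.74 ± 0.92 on the log2 scale (adjusted p = 0.000172 by edgeR). The values of lin-4-3p were 2.81 ± 0.50 and -2.50 ± 0.56, and those of miR-85-5p were 3.51 ± 0.56 and -2.44 ± 0.47. In all 3 an increase between the earlier phases stood against a decrease across the switch. The same held for miR-42-3p (1.06 ± 0.31 and -2.37 ± 0.38) and miR-67-5p (0.81 ± 0.27 and -1.78 ± 0.29). In miR-1817 the difference came from the earlier phases alone, with 4.04 ± 0.38 there and -0.04 ± 0.32 across the switch.

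On the other side, miR-235-3p changed by -2.67 ± 0.32 between the earlier phases and by 0.22 ± 0.30 across the switch (difference 2.90 ± 0.43, adjusted p = 0.000669 by edgeR). For miR-71-5p the values were -0.47 ± 0.37 and 2.10 ± 0.38 (difference 2.57 ± 0.53, adjusted p = 0.00541 by edgeR). The cluster strand miR-39-5p rose in both, by 1.14 ± 0.36 and by 3.69 ± 0.38, and miR-40-5p by 3.64 ± 0.48 across the switch only, with 0.40 ± 0.52 before. The guide miR-39-3p (0.25 ± 0.43 and 2.48 ± 0.46) and miR-45-5p (-0.85 ± 0.37 and 1.33 ± 0.37) also had a higher value across the switch. That of miR-39-3p missed the threshold with library totals and without any 1 of the WT libraries of 30, 34, 35 and 39 h (adjusted p up to 0.0667 by edgeR).

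**Figure D5:**
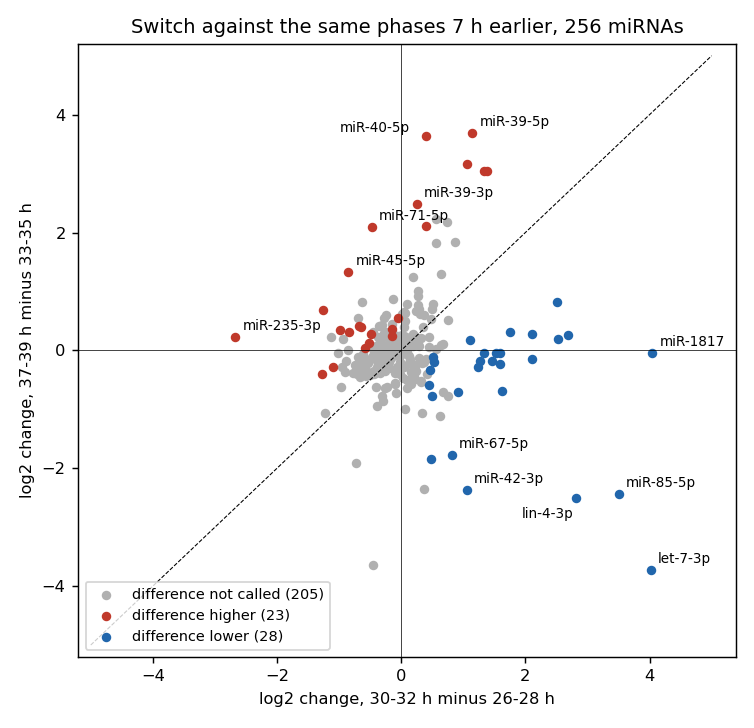
Log2 change across the switch (vertical axis) against the change between the windows 7 h earlier (horizontal axis) in 256 miRNAs, with the dashed line marking equal change and colours marking the 51 miRNAs whose changes differed. The strands let-7-3p, lin-4-3p and miR-85-5p lie at the lower right, and miR-40-5p, miR-39-5p and miR-71-5p lie at the top.

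The mutant ebax-1(tm2321) develops about 3 h later, so its 40 to 42 h libraries were set against those of 36 to 38 h. This change was called in 37 of 248 miRNAs (14.9%), 14 higher and 23 lower. No difference between the change in WT and that in the mutant was called (0 of 248, 0%; edgeR), with 29 at an unadjusted p under 0.05, 1 higher and 1 lower by the DESeq2 Wald test and 0 by limma on the deposited values. The strain cannot be told apart from the culture here. The 2 calls by DESeq2 were miR-71-5p and miR-42-3p.

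For miR-71-5p the log2 change was 2.13 ± 0.27 in WT and 0.53 ± 0.26 in the mutant (difference 1.59 ± 0.37, adjusted p = 0.135 by edgeR). For miR-42-3p it was -2.33 ± 0.34 in WT and -0.38 ± 0.27 in the mutant (difference -1.95 ± 0.44, adjusted p = 0.135 by edgeR). Both differences passed the edgeR test without the WT library of 35 h (adjusted p = 0.000698 and 0.00465). In miR-35-3p the mutant started from another level: its deposited log2 values averaged 13.0 ± 0.08 (SD, n = 3) at 36 to 38 h and 13.7 ± 0.56 at 40 to 42 h, against 10.2 ± 0.77 and 12.1 ± 1.11 in the WT windows. The decrease of let-7-3p was -3.69 ± 0.78 in WT and -2.78 ± 0.72 in the mutant, and miR-35-5p rose by 3.21 ± 0.54 and 2.33 ± 0.48. A missed threshold does not show that these changes are alike.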

How the data were processed

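Small RNA libraries had been prepared with the CleanTag kit from whole animals and sequenced as single reads. The authors trimmed adapters with QuasR, aligned to ce10 with Bowtie, keeping reads with many matches, and counted reads that began within 3 bases of the mature 5′ end of miRBase strands. Tool versions: not given in the sources used here. As deposited, counts are whole numbers and not normalized. The deposited log2 values were made by the authors from the counts scaled to the mean library total, plus 8. Recomputed values differed by at most 5e-04.

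Counts were filtered with filterByExpr (minimum count 10), scaled by TMM and tested with edgeR 4.0.16 quasi-likelihood F-tests in R 4.3.3 with Benjamini-Hochberg adjustment over all miRNAs kept and a threshold of 0.05. Log2 ratios of guide to passenger (pseudocount 8) and deposited log2 values were tested with limma 3.58.1, and DESeq2 1.42.0 was an alternative. Scripts were tested on simulated data. No molecular identifiers were used, so counting intervals cover counting error only. Totals were 2832088 to 5579822 counts in the WT libraries.

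Named were the 12 largest called changes in each direction without overlap between windows, their partner strands, the 2 members of each list with the largest changes or all members of lists of 3 or fewer, the 5 largest ratio changes and the 6 largest differences between changes in each direction. The lists and members were chosen with earlier results of these data known. The name miR-1834 of the miR-58 list did not occur in the table. Of 247 hairpins, 240 matched the WBcel235 annotation, which was used only for chromosomes, host genes and neighbours because its build differs from that of the files. Mature sequences were not used here.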

Additional observations from a re-analysis of the deposited data

Results flagged for a closer look

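In 12 named miRNAs the log2 change across the switch differed from the change between the windows 7 h earlier, by a test of the difference itself (edgeR, adjusted p under 0.05). The difference was 3.24 for miR-40-5p, 2.90 for miR-235-3p, 2.57 for miR-71-5p, 2.55 for miR-39-5p, 2.22 for miR-39-3p and 2.19 for miR-45-5p. It was -7.74 for let-7-3p, -5.94 for miR-85-5p, -5.31 for lin-4-3p, -4.08 for miR-1817, -3.43 for miR-42-3p and -2.59 for miR-67-5p. Windows of 3 libraries are too small for a test of single outlying libraries.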

How the results depend on the processing

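No paired analysis was possible because the labels give 1 library per strain and hour and no replicate numbers. Against 25 higher and 11 lower miRNAs across the switch, library totals gave 14 and 24, limma on the deposited log2 values 11 and 18, an adjusted p of 0.01 gave 7 and 2, the nearest 2 hours of each window 15 and 4, windows of 4 hours 43 and 17, and the stricter filter 13 higher. Leaving out 1 library gave 5 to 22 higher and 2 to 9 lower. The lowest counts came without 38 h (5 and 2), and without 33 h they were 22 and 6. All 36 called miRNAs kept their direction in these fits, 6 kept their call in each of them and 3 in none. For the 23 higher and 28 lower differences from the earlier phases, library totals gave 11 and 44, limma 11 higher and an adjusted p of 0.01 gave 6 higher. Leaving out 1 library gave 13 to 22 higher and 28 to 33 lower, with 13 higher without WT 34 h and 15 without 31 h or 32 h. For the strain difference, the DESeq2 Wald test gave 1 higher and 1 lower, mutant hours without the shift of 3 h gave 17 and 12, and leaving out 1 library gave 0 to 1 in each direction. For the 5 higher and 1 lower strand ratios, no filter gave 8 and 2, an adjusted p of 0.01 gave 0 and 0, and leaving out 1 library gave 0 to 9 higher and 0 to 4 lower, with 0 and 0 without 34, 38 or 39 h. Windows of 4 hours, the nearest 2 hours and the fits without 1 library use another number of libraries. For the other settings the cause was not tested. Strands with fewer than 10 reads per library are limited by depth.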

Other observations

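The cluster strands went on rising after the later window. On the deposited log2 scale the mean of 40 to 42 h minus that of 37 to 39 h was 1.85 for miR-35-3p, 1.74 for miR-36-3p, 2.10 for miR-39-3p and 1.32 for miR-39-5p (3 libraries each, not tested). Other strands moved less: the difference was -0.08 for miR-235-5p, 0.17 for lin-4-3p, 0.23 for miR-67-5p, 0.27 for miR-42-3p and 0.50 for miR-71-5p. At 36 h, miR-67-5p was 94.7%, let-7-3p 79.5%, miR-52-3p 75.2%, lin-4-3p 74.0% and miR-71-5p 65.3% of the way between the means of the 33 to 35 h and 37 to 39 h windows.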
